A study of Mus musculus with 12 samples.

Results

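The netrin-G family and its ligands comprise 5 of the 24480 genes in the count tables of the newborn mouse dorsal lateral geniculate nucleus (dLGN), the visual nucleus of the thalamus. They were taken by symbol, namely the netrin-G genes *Ntng1* and *Ntng2* and the netrin-G ligand (NGL) genes *Lrrc4c* (NGL-1), *Lrrc4* (NGL-2) and *Lrrc4b* (NGL-3). All 5 passed the filter on low counts in both mouse lines. RNA-seq comprised 12 libraries in 4 groups of 3, each library from the dLGNs of 3 animals pooled at postnatal day 0 (P0). Mutants of the *Sox2* line were Sox2flox/flox with Ror-alphaCre, and their controls were Sox2flox/flox or Sox2flox/+ littermates that lacked Cre. Mutants of the *Nr2f1* line were Nr2f1 flox/flox with Ror-alphaCre. Their controls were Nr2f1 flox/flox or Nr2f1 flox/+ littermates that also lacked Cre, according to the paper. The label of these samples, however, names the Cre allele beside the statement that Cre is absent. Cre was inserted into *Rora*, is active in postmitotic neurons of the sensory thalamus, and leaves the floxed gene intact in cells of the nucleus that do not express it. Mutants of a line were set against the controls of that line.

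Netrin-Gs are relatives of the secreted netrins that are anchored to the axon surface by a lipid and do not bind the classical netrin receptors. Each recognizes its own partner on dendrites, netrin-G1 binding NGL-1 and netrin-G2 binding NGL-2, and these contacts help to sort different inputs to different segments of one dendrite. NGL-3 has no netrin-G partner and binds receptor tyrosine phosphatases of the LAR family. The NGLs carry leucine-rich repeats outside the cell and bind PSD-95 scaffolds inside it. Netrin-G1 is known as a marker of thalamocortical axons, so its transcript is made in the cell bodies of thalamic relay neurons.

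In the *Sox2* mutants the netrin-G genes moved in opposite directions. *Ntng1* fell to 53.9% of its control level, whereas *Ntng2*, which was barely expressed in controls, rose 3.36-fold. None of the NGL genes was a differentially expressed gene (DEG) in either line by edgeR, although DESeq2, which called 15.8% of all genes in *Sox2* mutants and 7.13% in *Nr2f1* mutants, called 1 of the 3 in each. In the *Nr2f1* mutants *Ntng1* stood at 71.9% of control, which missed the threshold, and *Ntng2* overlapped between groups. None of the 5 genes differed between the mutants at the threshold.

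Levels are given in CPM, counts scaled to library size after TMM normalization, FDR is the p-value adjusted over all genes tested, and a DEG had FDR below 0.01. The labels were checked first with the targeted genes. *Sox2* lay between 361 and 382 CPM in the controls of its line and between 116 and 152 CPM in the mutants (log2 fold change -1.40, SE 0.10, edgeR FDR = 4.8e-05). *Nr2f1* lay between 311 and 380 CPM in the controls of its line and between 101 and 151 CPM in the mutants (log2 fold change -1.57, SE 0.14, edgeR FDR = 0.00035). Total counts ranged from 39293470 to 50095336 per library. Markers of thalamic glutamatergic neurons were abundant in every library, with summed levels of 8 genes between 1845 and 2697 CPM.

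The genes lie at 5 separate positions of GRCm38 in the RefSeq annotation. *Ntng1* (gene ID 80883) spans chromosome 3 from 109780050 to 110149972 on the minus strand. *Ntng2* (171171) spans chromosome 2 from 29194726 to 29248099, also on the minus strand. *Lrrc4c* (241568) lies far away on the same chromosome, from 96318169 to 97631672 on the plus strand. *Lrrc4* (192198) is a compact gene of 3622 bases on chromosome 6 from 28828126 to 28831747 and sits on the minus strand inside *Snd1*, which runs on the plus strand. *Lrrc4b* (272381) spans chromosome 7 from 44442487 to 44463351 on the plus strand.

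The 250 bases before the RefSeq start site are shown for the netrin-G genes, because these were the members called in the *Sox2* line. They are from RefSeq GRCm38.p6, 5′ to 3′ on the strand of the gene, at chr3:110143473-110143722 for *Ntng1* and chr2:29248100-29248349 for *Ntng2*.
Ntng1: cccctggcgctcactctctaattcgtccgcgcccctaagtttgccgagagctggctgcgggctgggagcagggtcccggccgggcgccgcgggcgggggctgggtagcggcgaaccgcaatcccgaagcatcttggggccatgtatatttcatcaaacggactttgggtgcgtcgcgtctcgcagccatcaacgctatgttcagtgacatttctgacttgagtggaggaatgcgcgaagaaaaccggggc
Ntng2: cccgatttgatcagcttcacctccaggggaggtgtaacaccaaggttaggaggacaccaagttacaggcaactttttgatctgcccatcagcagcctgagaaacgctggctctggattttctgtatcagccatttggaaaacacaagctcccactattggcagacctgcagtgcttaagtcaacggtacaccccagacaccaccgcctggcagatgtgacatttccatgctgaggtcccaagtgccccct
The window of *Ntng1* starts from a transcript whose start lies inside the annotated span of the gene. The window of *Ntng2* lies inside *6530402F18Rik*, a long non-coding RNA gene on the same strand from 29245116 to 29252993. Windows that also include the first 50 bases of each gene were searched on both strands for ACAAAG and ACAATG, cores bound by SOX factors, and for AGGTCA, a nuclear receptor core. Neither netrin-G window holds any of the 3 motifs, so no letters are in capitals. Of the 5 genes only *Lrrc4* has a match, to ACAAAG on the opposite strand, at offset -242 from its start (28831984 to 28831989). Among 17449 promoters of the same length, 17.1% hold ACAAAG, 11.1% ACAATG and 14.4% AGGTCA. A missing match says only that these letters are not in this window.

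Levels were compared between genes per kilobase of the longest GENCODE transcript, in control libraries. *Lrrc4b* was the most abundant of the 5 genes, with 139 ± 6.22 CPM per kb (SD, n = 3) in *Sox2*-line controls and 141 ± 5.39 in *Nr2f1*-line controls. *Ntng1* followed with 60.9 ± 9.01 and 69.3 ± 4.37 CPM per kb. The partner of netrin-G1, *Lrrc4c*, had 19.6 ± 1.11 and 19.7 ± 2.39 CPM per kb, and the partner of netrin-G2, *Lrrc4*, had 10.2 ± 1.40 and 9.49 ± 1.06. *Ntng2* was lowest with 1.48 ± 0.299 and 1.40 ± 0.13 CPM per kb. The gaps between neighbours in this order exceeded the spread between libraries in both lines. Of the LAR phosphatases only *Ptprs* lay above *Lrrc4b*, with 151 ± 5.45 and 155 ± 5.46 CPM per kb. *Ptprf* (36.7 and 38.1) and *Ptprd* (26.5 and 27.1) lay between *Ntng1* and *Lrrc4c*. The order of the 8 genes was the same when the mean length over transcripts was used.

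**Figure D1:**
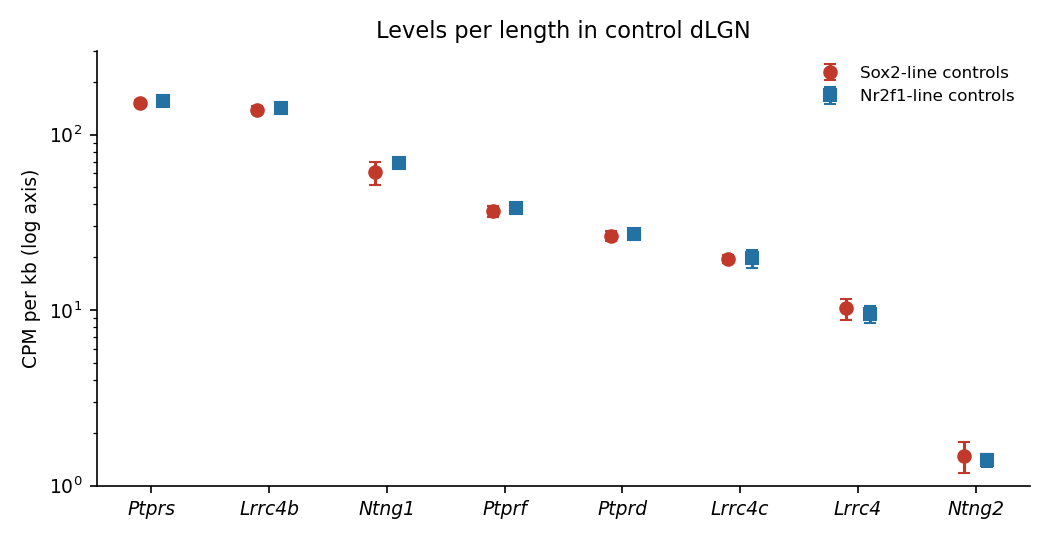
Levels of netrin-G, NGL and LAR phosphatase genes in control dLGN, in CPM per kb of the longest transcript on a log axis; points are means and bars SD over 3 libraries of each line. *Lrrc4b* and *Ptprs* stand at the top and *Ntng2* at the bottom, with 1.48 and 1.40 CPM per kb.

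*Ntng1* was lower in every *Sox2* mutant library than in every control library. Controls had 382, 355 and 284 CPM, and mutants had 174, 203 and 173 CPM. The highest mutant library lay clearly below the lowest control library. The log2 fold change was -0.89 (SE 0.11, 95% interval -1.15 to -0.64, edgeR FDR = 0.00078), and *Ntng1* remained a DEG in all 15 alternative fits (other filters, scalings and tests, a Y-linked covariate, and each library left out), with log2 fold changes between -0.99 and -0.80. As background, 8.08% of the 15602 genes tested there were DEG, 4.19% lower and 3.90% higher in mutants, and for 37.9% the libraries of the groups did not overlap. Of the 5 netrin-G and NGL genes, 2 were DEG and 4 did not overlap.

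*Ntng1* was not the only thalamic gene that was lower. Of 8 thalamic glutamatergic markers 4 were downregulated DEG and 0 were upregulated in the *Sox2* line, and their summed level was 1845 to 1893 CPM in mutants against 2002 to 2508 CPM in controls. The vesicular glutamate transporter gene *Slc17a6* fell by 0.96 on the log2 scale (SE 0.10, edgeR FDR = 0.00034), close to the change of *Ntng1*. *Lef1* had a log2 fold change of -0.91 (edgeR FDR = 0.00019), also close to that of *Ntng1*, and *Lhx9* of -0.43 (edgeR FDR = 0.0062). *Rora*, the gene that carries the Cre insertion, fell by 1.96 (SE 0.12, edgeR FDR = 2.1e-05). The 4 markers that were not called (*Tcf7l2*, *Lhx2*, *Cacna1g* and *Foxp2*) had log2 fold changes from 0.06 to 0.13. In tissue of mixed cells, fewer cells of a type and less RNA per cell cannot be told apart. The part of these markers in the change of *Ntng1* was not tested.

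*Ntng2* rose in every *Sox2* mutant library. Controls had 3.57, 2.60 and 2.52 CPM, and mutants had 10.8, 5.42 and 12.9 CPM. The groups did not overlap, but the mutant libraries were widely spread, with MUT_3 nearest to the controls. The log2 fold change was 1.74 (SE 0.29, 95% interval 1.08 to 2.40, edgeR FDR = 0.0037). The call rested on single libraries, since the FDR was 0.012 without CTRL_1, 0.022 without CTRL_2 and 0.018 without MUT_4, with log2 fold changes of 1.92, 1.67 and 1.48.

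The counts of *Ntng2* carried a limit of their own. RSEM, the program that estimated the counts, divides a read among the genes it could come from, and the deposited count of *Ntng2* was not a whole number in 12 of 12 libraries, whereas those of the other 4 genes were whole in all. The counts of *Ntng2* and of the overlapping *6530402F18Rik* added up to a whole number in 12 of 12 libraries, with *Ntng2* given 42.7 to 61.2% of the sum. In GENCODE vM21 their exons share 558 bases, 14.0% of the exonic bases of *Ntng2*. *6530402F18Rik* itself had 3.37, 3.48 and 3.04 CPM in controls and 6.89, 5.52 and 8.90 CPM in mutants of the *Sox2* line. It was upregulated by 1.11 on the log2 scale (SE 0.19, edgeR FDR = 0.0037), again not without CTRL_1, CTRL_2 or MUT_4 (FDR 0.019, 0.017 and 0.016). The sum of both genes, which does not depend on how reads were divided, rose by 1.44 (edgeR FDR = 0.0023).

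The balance of the netrin-G genes within a library does not depend on library scaling. Per kilobase, *Ntng2* stood at 2.67, 2.10 and 2.53% of *Ntng1* in *Sox2*-line controls and at 17.8, 7.61 and 21.4% in *Sox2* mutants. The mean log2 ratio rose by 2.56, a 5.89-fold change (two-sided exact permutation p = 0.1, which is the lower limit for 3 libraries against 3). In the *Nr2f1* line *Ntng2* stood at 1.94, 2.36 and 1.79% of *Ntng1* in controls and at 3.27, 2.58 and 6.14% in mutants. Here the mean log2 ratio rose by 0.89, or 1.85-fold (two-sided exact permutation p = 0.1, again the lower limit), and the rise was smaller without MUT_C. The groups did not overlap, but MUT_B (2.58%) lay close to CTRL_D (2.36%), and neither gene was a DEG in this line. The ratio combines the changes of both genes and is not a separate result. *Ntng1* remained the more abundant netrin-G in all 12 libraries.

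**Figure D2:**
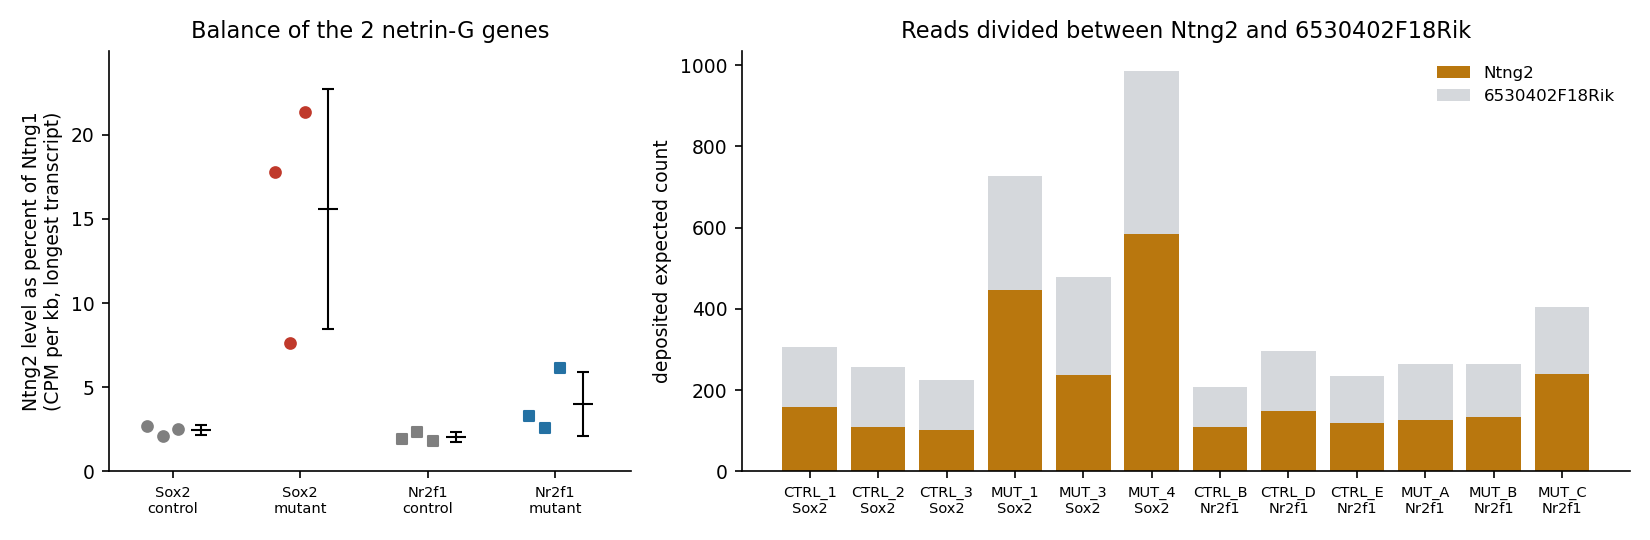
Left, level of *Ntng2* as a percent of *Ntng1* (CPM per kb of the longest transcript) in each library, with mean and SD over 3 libraries of each group; *Sox2* mutants lie between 7.61 and 21.4% against 2.10 to 2.67% in their controls. Right, deposited expected counts of *Ntng2* and *6530402F18Rik* stacked for each of the 12 libraries, in which *Ntng2* takes 42.7 to 61.2% of the sum.

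Markers of other cells were also mostly higher in the *Sox2* line. All 7 fibroblast, all 7 vascular and all 7 oligodendrocyte lineage markers had log2 fold changes above 0. Of these, 1, 0 and 1 were DEG by edgeR, and 5 of the vascular markers had an unadjusted p below 0.05. Control and mutant sums overlapped for fibroblast (950 to 1882 and 1468 to 3300 CPM) and vascular markers (353 to 541 and 499 to 624 CPM). Oligodendrocyte lineage sums did not overlap (571 to 696 and 705 to 815 CPM). The 7 pallial and hippocampal markers summed to 48.2, 33.1 and 20.5 CPM in CTRL_1, CTRL_2 and CTRL_3, and to 133, 39.1 and 79.5 CPM in MUT_1, MUT_3 and MUT_4. All 7 had log2 fold changes above 0, 1 of them was a DEG, and none was at 0 in any group. The DEG was *Slc17a7*, a vesicular glutamate transporter gene, upregulated by 1.24 on the log2 scale (SE 0.24, edgeR FDR = 0.0073). It was lost without any one of CTRL_1, CTRL_2, CTRL_3 and MUT_4 (FDR 0.011 to 0.034). The library with the least *Ntng2* among the mutants, MUT_3, also had the lowest pallial sum, and this sum lay below that of CTRL_1 while its *Ntng2* lay above. The 7 microglial markers were all upregulated DEG, with sums of 214 to 247 CPM in mutants against 97.7 to 110 CPM in controls. Of 7 astrocyte markers 5 were upregulated DEG, with sums of 1722 to 1917 against 1133 to 1275 CPM. Among the mutant libraries MUT_3, with the least *Ntng2*, had microglial and astrocyte sums of 244 and 1883 CPM, between those of MUT_1 and MUT_4. The 8 GABAergic markers summed to 216, 157 and 174 CPM in MUT_1, MUT_3 and MUT_4, against 88.9 to 135 CPM in controls. MUT_3, with the least *Ntng2*, thus also had the lowest GABAergic sum of the mutants. Of these markers 0 were DEG by edgeR, 8 had an unadjusted p below 0.05 and 5 were called by DESeq2. The part of these cells in the change of *Ntng2* was not tested.

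**Figure D3:**
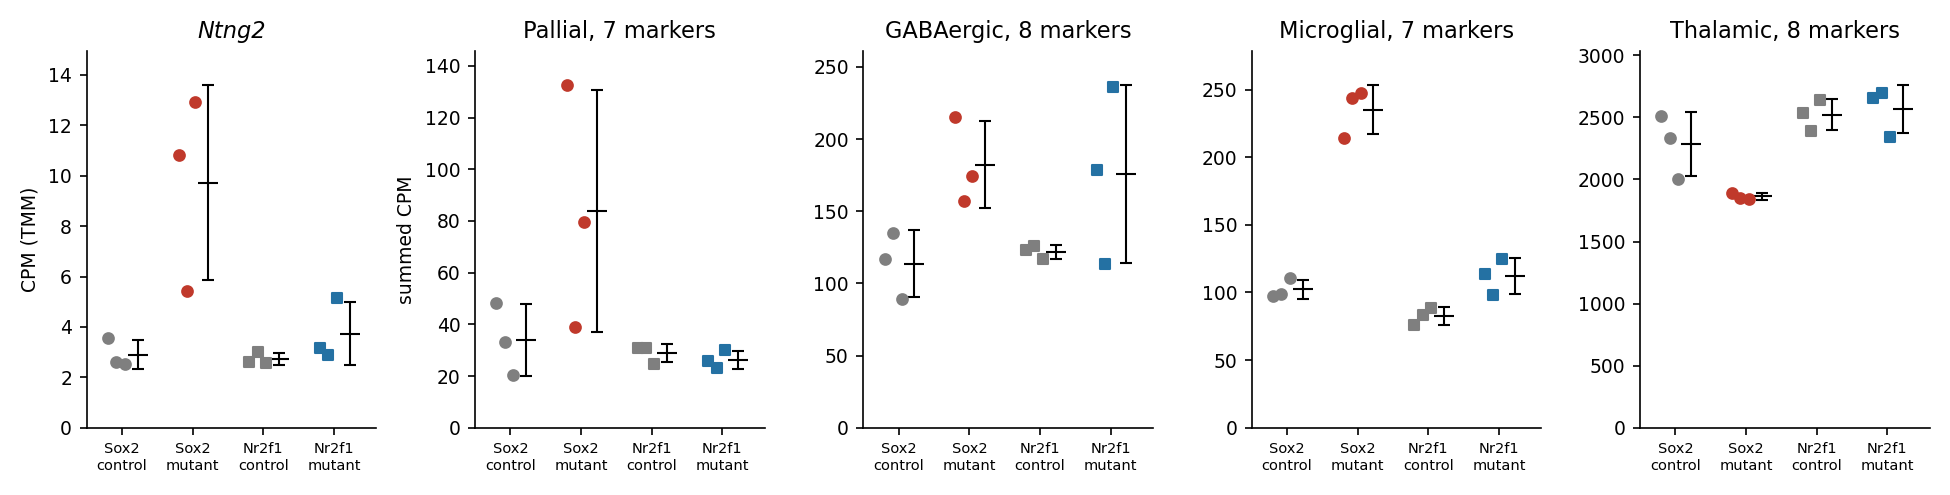
*Ntng2* in CPM and the summed CPM of 4 marker lists in each library, with mean and SD over 3 libraries of each group. Pallial sums of *Sox2* mutants range from 39.1 to 133 CPM, whereas those of *Nr2f1* mutants (23.0 to 30.0 CPM) lie in or below the range of their controls (24.7 to 30.9 CPM).

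The NGL genes changed less in the *Sox2* line. *Lrrc4c*, which encodes the partner of netrin-G1, had 69.3, 76.1 and 68.9 CPM in controls and 45.1, 63.6 and 41.9 CPM in mutants, so that groups did not overlap and MUT_3 again lay nearest to the controls. Its log2 fold change of -0.51 (SE 0.14, 95% interval -0.82 to -0.20) missed the threshold (edgeR FDR = 0.031). It passed without MUT_3 (log2 fold change -0.72, FDR = 0.0010) and with DESeq2 (FDR = 0.0028) and with edgeR's likelihood ratio (0.0050) and exact tests (0.0051). DESeq2 and these edgeR tests called 15.8, 15.1 and 14.9% of all genes. *Lrrc4*, which encodes the partner of netrin-G2, had 41.7, 37.4 and 31.6 CPM in controls and 43.3, 39.9 and 43.4 CPM in mutants, and the groups overlapped (log2 fold change 0.19, 95% interval -0.04 to 0.42, edgeR FDR = 0.21). *Lrrc4b* had 388, 389 and 359 CPM in controls and 348, 339 and 341 CPM in mutants. Its groups did not overlap, and its log2 fold change of -0.14 (95% interval -0.29 to 0.00070) had an edgeR FDR of 0.14. The host gene *Snd1* of *Lrrc4* had log2 fold changes of -0.02 and -0.01 in the *Sox2* and *Nr2f1* lines, with no exonic base shared with *Lrrc4* in GENCODE.

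**Figure D4:**
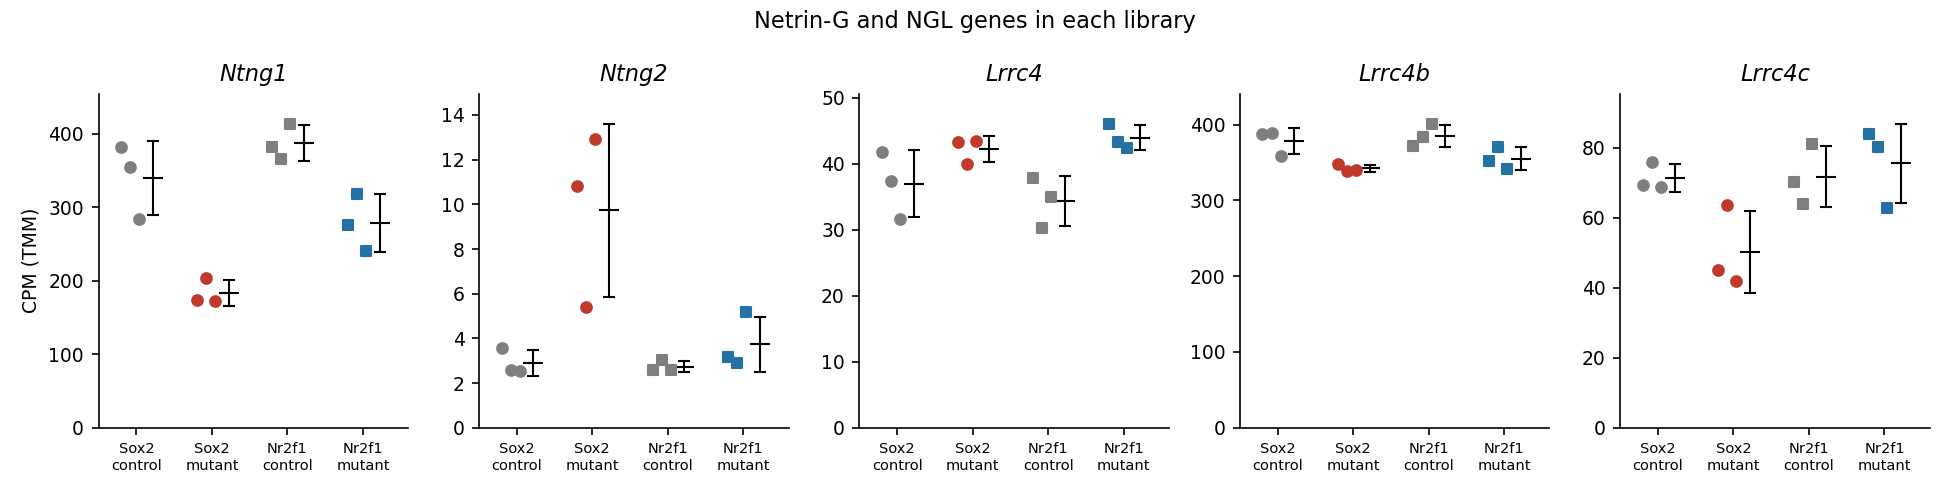
CPM of the netrin-G genes (*Ntng1*, *Ntng2*) and NGL genes (*Lrrc4*, *Lrrc4b*, *Lrrc4c*) in each of the 12 libraries, with mean and SD over the 3 libraries of a group. *Sox2* mutants lie apart from their controls for *Ntng1* (173 to 203 against 284 to 382 CPM) and *Ntng2* (5.42 to 12.9 against 2.52 to 3.57 CPM). They also lie apart for *Lrrc4b* (339 to 348 against 359 to 389 CPM) and *Lrrc4c* (41.9 to 63.6 against 68.9 to 76.1 CPM), as did 37.9% of all genes tested.

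In the *Nr2f1* line 0 of the 5 genes were DEG (edgeR), against 2.54% of the 15600 genes tested, 1.32% lower and 1.22% higher in mutants, and 3 of the 5 had an unadjusted p below 0.05. DESeq2 called 2 of the 5, as did the likelihood ratio and exact tests of edgeR, where these called 7.13, 6.98 and 6.87% of all genes. *Ntng1* had 382, 365 and 413 CPM in controls and 276, 318 and 240 CPM in mutants. The highest mutant lay below the lowest control. The log2 fold change was -0.48 (SE 0.09, 95% interval -0.69 to -0.27, edgeR FDR = 0.016). It passed the threshold with DESeq2 (FDR = 4.8e-06), both other edgeR tests (likelihood ratio and exact, 0.00021), with no filter on low counts (0.0053) and without MUT_B (log2 fold change -0.58, FDR = 0.0014). The thalamic markers gave sums of 2342 to 2697 CPM in mutants and 2391 to 2639 CPM in controls, which overlapped. Of the markers whose change was close to that of *Ntng1* in the *Sox2* line, *Slc17a6* had a log2 fold change of -0.04 here (edgeR FDR = 0.84). The other, *Lef1*, had one of -0.70 (edgeR FDR = 0.0085). Of the 8 markers 2 were upregulated DEG, *Lhx2* (log2 fold change 0.46, edgeR FDR = 0.0025) and *Cacna1g* (0.30, FDR = 0.0040), and 1 was a downregulated DEG, *Lef1*. Each lost its call without single libraries, with highest FDR of 0.020, 0.026 and 0.053. Y-linked genes, which mark the share of males in a pool, had a median log2 fold change of -1.37 in this line with 0 of 4 called by edgeR or DESeq2 and 0 at an unadjusted p below 0.05, and with their level as a covariate the log2 fold change of *Ntng1* was again -0.48, with an FDR of 0.13. That fit called 48 genes in all, against 396 without the covariate. The part of the sex of the pools in the change of *Ntng1* was not tested further.

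*Ntng2* was not called in the *Nr2f1* line. Controls had 2.59, 3.01 and 2.59 CPM, and mutants had 3.16, 2.88 and 5.16 CPM, of which MUT_C was the highest. The log2 fold change was 0.45 (SE 0.23, 95% interval -0.06 to 0.97, edgeR FDR = 0.26) and fell to 0.14 without MUT_C. In MUT_C the pallial markers summed to 30.0 CPM, inside the control range of 24.7 to 30.9 CPM, whereas GABAergic markers summed to 236 CPM against 117 to 126 CPM in controls. MUT_C also had the highest fibroblast (2433 CPM, controls 716 to 1099), vascular (555 CPM, controls 360 to 415), microglial (125 CPM, controls 76.0 to 88.7) and astrocyte (1170 CPM, controls 935 to 982) sums of the line. MUT_A also lay above all controls, though below MUT_C, in GABAergic (178 CPM), fibroblast (1994), vascular (539), microglial (114) and astrocyte (1078.5) sums. Its *Ntng2* level of 3.16 CPM was near the highest control (3.01 CPM). The part of these cells in the level of *Ntng2* in MUT_C was not tested.

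*Lrrc4* had 37.8, 30.2 and 35.0 CPM in controls and 46.0, 43.3 and 42.4 CPM in *Nr2f1* mutants. All mutants lay above all controls, and the log2 fold change of 0.36 (SE 0.09, 95% interval 0.16 to 0.55) missed the threshold (edgeR FDR = 0.036) while passing with DESeq2 (0.0031) and with edgeR's likelihood ratio (0.0062) and exact tests (0.0064). *Lrrc4b* had 372, 383 and 401 CPM in controls and 352, 371 and 341 CPM in mutants (log2 fold change -0.12, edgeR FDR = 0.20). *Lrrc4c* had 70.3, 63.9 and 81.2 CPM in controls and 83.9, 80.2 and 62.7 CPM in mutants, and the groups overlapped in full (log2 fold change 0.07, 95% interval -0.18 to 0.33, edgeR FDR = 0.75). In total 3 of the 5 genes did not overlap between mutants and controls, against 28.6% of all genes tested. The median log2 fold change of the 5 genes was 0.07 in this line and -0.14 in the *Sox2* line, beside 0.01 and 0.00050 over all genes tested.

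**Figure D5:**
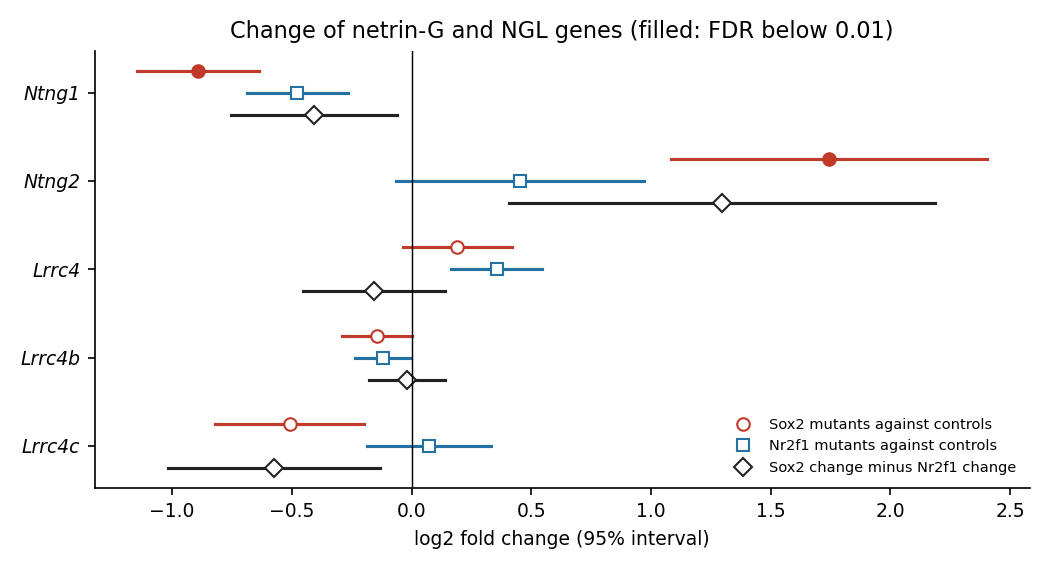
Log2 fold changes with 95% intervals of the netrin-G and NGL genes in *Sox2* mutants, in *Nr2f1* mutants, and for the difference between the changes; filled symbols have FDR below 0.01 and are open otherwise. Only *Ntng1* (-0.89) and *Ntng2* (1.74) in the *Sox2* line are filled.

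The changes in the mutants were then compared directly, with the *Nr2f1* change subtracted from the *Sox2* change in one fit over the 12 libraries. None of the 5 genes differed (0 called by edgeR at FDR below 0.01, and 0 with DESeq2 and the likelihood ratio test), while 1.44% of the 15989 genes tested did (3.40% when DESeq2 was used, 3.10% in the likelihood ratio test), and 3 of the 5 had an unadjusted p below 0.05. For *Ntng1* the difference was -0.41 (95% interval -0.75 to -0.06, edgeR FDR = 0.22). For *Ntng2* it was 1.30 (0.41 to 2.19, edgeR FDR = 0.12), and 1.06 for the sum with *6530402F18Rik* (edgeR FDR = 0.083). For *Lrrc4c* it was -0.57 (-1.02 to -0.13, edgeR FDR = 0.17). The intervals of *Lrrc4* (-0.45 to 0.14) and *Lrrc4b* (-0.18 to 0.14) included 0. At this threshold the data thus show neither unequal nor equal changes of the netrin-G genes in the mutants.

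The proteins that bind the NGLs from outside and inside the cell were mostly not DEG. Of the LAR phosphatases *Ptprf*, *Ptprd* and *Ptprs*, which bind NGL-3, none was called in either line (edgeR, 0 of 3, with unadjusted p below 0.05 for *Ptprs* in the *Sox2* line and *Ptprd* in the *Nr2f1* line, and 0 with DESeq2). Their log2 fold changes lay between -0.18 and -0.01 in the *Sox2* line and between -0.15 and -0.10 in the *Nr2f1* line. Of the PSD-95 family scaffolds *Dlg1*, *Dlg2*, *Dlg3* and *Dlg4*, only *Dlg1* was a DEG. It had 26.9 ± 3.11 CPM in controls and 38.5 ± 2.41 CPM in mutants of the *Sox2* line (SD, n = 3), an increase of 0.52 on the log2 scale (SE 0.10, edgeR FDR = 0.0062) that missed the threshold when any one library other than CTRL_3 was left out (FDR 0.012 to 0.035). In the *Nr2f1* line its log2 fold change was 0.39 (edgeR FDR = 0.035). *Dlg4*, which encodes PSD-95 itself, had log2 fold changes of -0.08 and 0.11, *Dlg3* of -0.14 and -0.04, and *Dlg2* of 0.22 and -0.09 in the *Sox2* and *Nr2f1* lines, with no call.

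Other partners of the LAR phosphatases and the secreted netrins with their receptors were then counted, beside the 8.08% (*Sox2* line) and 2.54% (*Nr2f1* line) of all genes that were DEG by edgeR and the 15.8% and 7.13% that DESeq2 called. Of 11 other LAR partners 1 was upregulated and 0 downregulated in the *Sox2* line (9 at an unadjusted p below 0.05, 4 by DESeq2), and 0 of 11 were called by edgeR in the *Nr2f1* line (4 at an unadjusted p below 0.05, 1 by DESeq2). The gene was *Ntrk3*, which encodes the neurotrophin-3 receptor TrkC, higher by 0.70 on the log2 scale (SE 0.10, edgeR FDR = 0.0012), with an FDR of 0.010 without CTRL_1. Of 9 secreted netrin and receptor genes tested, of 10 listed, 2 were upregulated and 0 downregulated in the *Sox2* line (5 at an unadjusted p below 0.05, 3 by DESeq2) and 0 were called by edgeR in the *Nr2f1* line (5 at an unadjusted p below 0.05, 1 by DESeq2). The upregulated genes were *Dcc*, an attractive netrin receptor (log2 fold change 0.82, SE 0.12, edgeR FDR = 0.0021), and *Unc5d*, of the repulsive receptor family (0.99, SE 0.18, edgeR FDR = 0.0055). *Unc5d* missed the threshold without any one of CTRL_2, MUT_1, MUT_3 and MUT_4 (FDR 0.013 to 0.023). In the *Sox2* line 4 of the 11 LAR partners and 4 of the 9 genes of the netrin list had log2 fold changes above 0. The median log2 fold change there was -0.18 over the LAR partners (range -0.58 to 0.70) and -0.02 over the netrin list (-0.48 to 0.99).

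The genes that varied most like each netrin-G were sought among 15397 genes by Pearson's r of log2 CPM over the 12 libraries, after the mean of each line had been subtracted. For *Ntng1* these were *Syt1*, a calcium sensor of synaptic vesicles (r = 0.99), *Peg13* (0.99), *AI593442* (0.99), *Tmem132b* (0.99) and *Thsd7a* (0.99). All were downregulated DEG in the *Sox2* line, and *AI593442* and *Tmem132b* were also DEG in the *Nr2f1* line. There *AI593442* kept its call in 2 of the 6 fits with 1 library left out (highest FDR 0.019) and *Tmem132b* in 4 of 6 (highest FDR 0.013). *Thsd7a* lost its call in the *Sox2* line without single libraries (highest FDR 0.012). For *Ntng2* they included *Mn1* (r = 0.98), the dopamine receptor gene *Drd2* (0.96), the neuropeptide gene *Nts* (0.96) and *Rspo1* (0.96). *Mn1*, *Drd2* and *Nts* were upregulated DEG in the *Sox2* line, though each lost the call in some fits without single libraries (highest FDR 0.012 to 0.027), and *Rspo1* was not (edgeR FDR = 0.019). None of these 4 was called in the *Nr2f1* line by edgeR or under the alternatives run. The points share libraries and genotype, so these values describe likeness only.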

How the data were processed

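RNA-seq was measured in 12 libraries of P0 dLGN. According to the paper's methods the authors used STAR to align read pairs to RefSeq transcripts and RSEM to estimate counts. The labels name mm10 and STAR. The authors deposited expected counts per gene, not normalized, with a separate table per line. Non-whole estimates made up 7.77% of the values, and all values were rounded. Whether the counting used strand is not given in the sources used here. Columns name the group of a library but not its sample. The p-values measure the spread between these pools. Replicate libraries differed by more than sampling noise (chi-square per degree of freedom 10.4 to 37.9). The highest values were those of CTRL_3 against CTRL_1 (37.9) and CTRL_2 (31.5), whereas CTRL_1 against CTRL_2 gave 10.4. CTRL_3 also had the highest fibroblast sum of the *Sox2*-line controls (1882 CPM, against 975 and 950 CPM).

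The test was edgeR's glmQLFTest (edgeR 4.0.16, R 4.3.3), a quasi-likelihood F-test with default settings. Low counts were removed by filterByExpr (at least 10 counts, 15 in total), and libraries were scaled by TMM. P-values had Benjamini-Hochberg adjustment over all genes tested and the threshold was FDR below 0.01, as in the study. At this threshold the paper reported more DEG in each line than the 1261 (*Sox2* line) and 396 (*Nr2f1* line) found here. A gene that missed the threshold here may therefore have passed it in the paper. The cause of this gap was not tested. SE is the log2 fold change divided by the square root of F. The difference between the mutants is the interaction of line and genotype. Transcript lengths were from GENCODE vM21, found for 96.8% of genes, and the r values used log2(CPM + 0.5). Exact permutation tests used scipy 1.17.1. The scripts were tested on simulated counts. The alternatives were other filters, upper quartile normalization, DESeq2 1.42.0, other edgeR tests, one fit over all libraries, FDR below 0.05, a Y-linked covariate and each library left out, and the sum of *Ntng2* with *6530402F18Rik*, which was added after seeing the data.

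The genes, the lists and the tests were chosen with earlier results of these data known. Named genes are the 5 members, the LAR phosphatases and PSD-95 scaffolds, up to 4 DEG from each other list, overlapping genes, the 5 genes most like each netrin-G (of which 1 is not reported here), and markers of lists that moved in the direction of a called member. Some marker lists (habenula, oligodendrocyte lineage, vascular, fibroblast) are given mainly in the closing section.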

Additional observations from a re-analysis of the deposited data

Results flagged for a closer look

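Among the genes named or counted as markers, 7 changed differently in the mutants by the interaction test of edgeR, as *Sox2* change minus *Nr2f1* change on the log2 scale. None of the netrin-G or NGL genes was among them. The genes deleted in the lines were, with differences of -0.84 for *Sox2* (FDR = 0.0060) and 1.19 for *Nr2f1* (FDR = 0.0074). The thalamic genes *Slc17a6* (difference -0.91, FDR = 0.0047) and *Rora* (-1.70, FDR = 0.00012) were lower in *Sox2* mutants, with changes of -0.96 and -1.96, than in *Nr2f1* mutants, with changes of -0.04 and -0.25. The microglial genes *Cx3cr1* (difference 0.69, FDR = 0.0040), *P2ry12* (1.48, FDR = 0.00042) and *Trem2* (1.32, FDR = 0.0026) rose in *Sox2* mutants by 1.12, 1.45 and 1.58 and had changes of 0.44, -0.02 and 0.26 in *Nr2f1* mutants. Of the 12 fits with 1 library left out, the difference passed 0.01 in 2 for *Slc17a6*, in 3 each for *Cx3cr1*, *Sox2* and *Nr2f1*, in 10 for *Trem2*, and in 12 for *Rora* and *P2ry12*. With the Y-linked covariate it missed 0.01 for *Slc17a6* (FDR = 0.054), *Cx3cr1* (0.042), *Trem2* (0.011), *Sox2* (0.053) and *Nr2f1* (0.082). Groups of 3 libraries were not examined for single outlying values.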

How the results depend on the processing

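*Ntng1* in the *Sox2* line was called in all 15 alternative fits, and none of the 5 genes was called for the difference between the mutants under any of the alternatives tried. With 1 library left out, the number of the 5 genes called in the *Sox2* line ranged from 1 to 3, and that in the *Nr2f1* line from 0 to 1; the log2 fold change ranged from 1.48 to 2.03 for *Ntng2* and from -0.72 to -0.39 for *Lrrc4c* in the *Sox2* line, and from -0.58 to -0.38 for *Ntng1* and from -0.0065 to 0.19 for *Lrrc4c* in the *Nr2f1* line. In the *Nr2f1* line 2 of the 5 genes were called at FDR below 0.05, with DESeq2 and with both other edgeR tests, and 1 with no filter on low counts. At FDR below 0.05, with DESeq2 and with edgeR's likelihood ratio and exact tests, calls were gained by *Lrrc4c* in the *Sox2* line (log2 fold change -0.51 in each) and by *Ntng1* (-0.48 in each) and *Lrrc4* (0.36, and 0.35 with DESeq2) in the *Nr2f1* line, and *Ntng1* was also called with no filter (-0.48). The cause was not tested.

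Signs turned only for values near 0 that were not called. With upper quartile normalization these were *Snd1* (0.028 in the *Sox2* line, 0.0066 in the *Nr2f1* line), *Ptprf* in the *Sox2* line (0.036) and the difference for *Lrrc4b* (0.012). With the Y-linked covariate in the *Nr2f1* line they were *Lrrc4c* (-0.043), *Snd1* (0.0078) and *P2ry12* (0.12). With 1 library left out, values ranged from -0.061 to 0.031 for *Snd1* and from -0.058 to 0.023 for *Ptprf* in the *Sox2* line. The *Nr2f1* line gave -0.020 to 0.0047 for *Snd1*, -0.10 to 0.023 for *Dlg3*, -0.14 to 0.048 for *Slc17a6* and -0.18 to 0.061 for *P2ry12*, and the difference for *Lrrc4b* ranged from -0.050 to 0.029. The rise of the *Ntng2* to *Ntng1* ratio kept its direction in both lines with 1 count added to each gene, for the sum with *6530402F18Rik* and with each library left out, where the log2 change was 2.27 to 3.01 in the *Sox2* line and 0.53 (without MUT_C) to 1.15 in the *Nr2f1* line. Leaving out the division by length cannot change this difference.

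Among all genes tested, leaving out 1 library gave 494 (without CTRL_2) to 2161 (without CTRL_3) DEG in the *Sox2* line, 133 (without MUT_A) to 868 (without MUT_B) in the *Nr2f1* line and 133 to 308 for the difference, against 1261, 396 and 231. The other settings gave 883 to 3095, 48 to 1154 and 93 to 544, with the fewest under the Y-linked covariate. No paired analysis was possible because the columns carry no replicate number that the labels tie to a sample. *Ntng2* had 102 to 584 deposited counts per library, and its log2 fold changes had the largest SE of the 5 genes (0.29 and 0.23). The mutants of the *Sox2* line ranged from 5.42 to 12.9 CPM.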

Other observations

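MUT_3 was the *Sox2* mutant library nearest to the controls for each netrin-G gene and for *Lrrc4c*, with 203 CPM of *Ntng1*, 5.42 CPM of *Ntng2* and 63.6 CPM of *Lrrc4c*. It also had the lowest pallial (39.1 CPM) and GABAergic (157 CPM) marker sums and the highest fibroblast sum (3300 CPM) among the mutants of its line, whereas its microglial sum of 244 CPM lay within the range of the others (214 to 247 CPM).

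The remaining marker lists gave these values in the *Sox2* and *Nr2f1* lines. Habenular markers had 1 downregulated and 0 upregulated DEG of 6 tested in the *Sox2* line and 0 of 5 in the *Nr2f1* line (edgeR, 1 at an unadjusted p below 0.05 and 1 by DESeq2). Oligodendrocyte lineage markers had 1 upregulated DEG of 7 in each line. Vascular markers had 0 of 7 by edgeR in each line, with 5 and 4 at an unadjusted p below 0.05 and 0 and 1 called by DESeq2, and fibroblast markers 1 upregulated of 7 in the *Sox2* line and 0 of 7 in the *Nr2f1* line (edgeR, 7 at an unadjusted p below 0.05 and 0 by DESeq2). Fibroblast sums were 950 to 1882 CPM in *Sox2*-line controls and 1468 to 3300 CPM in mutants, and 716 to 1099 CPM and 1047 to 2433 CPM in the *Nr2f1* line.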
